A study of Caenorhabditis elegans with 14 samples.

Results

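*lys-1* to *lys-8* are 8 lysozyme genes of *C. elegans*, and they were taken by name from the 42048 genes of the count files. Lysozymes cleave peptidoglycan, the sugar and peptide mesh of the bacterial cell wall. In *C. elegans*, which feeds on bacteria, they are made mainly in the intestine and are known for digesting food bacteria and for defence against ingested pathogens. These 8 genes encode lysozymes of the protist type, and the *ilys* genes encode a separate, invertebrate type. The p38 kinase PMK-1, the TGF-beta ligand DBL-1 and the insulin receptor pathway with its transcription factor DAF-16 are known to act on intestinal defence genes, *lys-8* being known as a DBL-1 target and *lys-7* as a DAF-16 target.

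The mutants carry deletions in *nfki-1* and *ikb-1*, which encode homologs of the mammalian inhibitors of NF-κB, in an animal that has no NF-κB. At L4, after 36 h of growth at 25 °C, the strains were *nfki-1(cer1)* (368 bp deleted), *ikb-1(nr2027)* (1911 bp deleted), a double mutant with both of these alleles, and WT (N2 Bristol), each with 2 files. At L1, after 5 h of feeding and 3 h of starvation at 25 °C, they were *nfki-1(cer2)* (434 bp deleted and 50 bp inserted), *ikb-1(cer9)* (462 bp deleted, start codon included) and WT, each with 2 libraries. Every single mutant is known here by 1 allele per stage and the alleles differ between stages, so that stage and allele cannot be told apart in the mutants. From here on the mutants are called *nfki-1* larvae, *ikb-1* larvae and double mutants, with the alleles of the stage in question. Whole larvae were used, and in such bulk samples fewer cells of a type and less RNA per cell cannot be told apart.

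Reads counted on genes came to 19735958 to 22373456 per file at L4 and 57740500 to 63394016 per library at L1. The paired files of an L4 strain differed by 0.619 to 0.676 times the counting variance once the difference shared by all strains was removed (3.35 to 4.45 before), against 10.8 to 21.1 between L1 replicates. The 2 files of an L4 strain thus differed by less than sampling noise once that shift was taken out, and they were counted as 1 sample. L4 ratios therefore have no replicate check, and their 95% intervals (exact binomial) speak for counting error alone. The mutated genes were lower in the strains labelled as their mutants, although reads from exons outside a deletion also enter these counts. *nfki-1* had 6.82 CPM (read counts relative to the scaled library size, with 1 scaling per stage) in L4 *nfki-1* larvae and 7.27 in double mutants, against 36.8 in WT, and at L1 it had 98.7 and 75.7 in *nfki-1* larvae, against 158 and 147 in WT. *ikb-1* had 3.43 CPM in L4 *ikb-1* larvae and 2.76 in double mutants, against 11.6 in WT. It was also lower in L4 *nfki-1* larvae (5.77 CPM, a log2 ratio of -1.01), which carry no *ikb-1* allele, and at L1 it had 1.63 and 2.76 in *ikb-1* larvae, against 52.9 and 48.2 in WT.

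On WBcel235 the genes form 2 tight groups and 2 single genes. *lys-1* (chromosome V, 10277904 to 10279056, plus strand), *lys-2* (10280307 to 10281474, minus strand) and *lys-3* (10282100 to 10283544, minus strand) lie 1250 and 625 bases apart with 0 protein-coding genes between them. *lys-4* (chromosome IV, 11621429 to 11623174), *lys-5* (11624252 to 11625582) and *lys-6* (11626910 to 11627947) all lie on the minus strand, 1077 and 1327 bases apart, again with 0 protein-coding genes between. *lys-7* lies alone on chromosome V (3481432 to 3482600, minus strand) and *lys-8* alone on chromosome II (5586178 to 5587651, plus strand). *lys-8* overlaps the protein-coding gene C17G10.13 and *lys-4* overlaps the piRNA gene 21ur-8714, and as the strand setting of the counting is not given in the sources used here, reads in those overlaps may belong to either gene. The deposited line for reads with several alignments is 0 throughout, how such reads were handled is not given in the sources used here, and any exchange of reads between similar lysozyme genes was not tested.

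*lys-1* was the most abundant lysozyme message in all 7 groups. Per kilobase of exon, *lys-1* had 1377 CPM in L4 *nfki-1* larvae, 1251 in *ikb-1* larvae and 1948 in double mutants, against 2393 in WT, and *lys-2* was the next most abundant gene in each of these strains at 530, 525 and 887, against 1280. *lys-8* came next at 336, 293 and 362, against 404 in WT, and then *lys-4* at 42.8, 64.1 and 176, against 119. *lys-7* and then *lys-3* followed in all 4 L4 strains. *lys-6* and *lys-5* were last, with at most 1.75 and 0.580 CPM per kilobase. In L4 *nfki-1* larvae the gap between *lys-4* and *lys-7* was 1.14-fold, against 14.9-fold in WT.

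At L1 the genes at the top of this order overlapped. *lys-1*, *lys-2* and *lys-8* had 575, 439 and 364 CPM per kilobase on average in *nfki-1* larvae and 598, 394 and 359 in WT, and in both strains the replicates of *lys-1* overlapped those of *lys-2*, and those of *lys-2* overlapped those of *lys-8*. In *ikb-1* larvae *lys-8* (330) stood above *lys-2* (300), also with overlapping replicates. By mean, *lys-7* came after these 3 genes in every L1 strain at 160, 166 and 121 CPM per kilobase in *nfki-1* larvae, *ikb-1* larvae and WT. Its replicates did not overlap those of the gene next above or below by mean. In *nfki-1* larvae, however, *lys-2* in replicate 1 (151) lay between the *lys-7* replicates (117 and 204). *lys-4* followed at 43.5, 34.5 and 23.4, then *lys-3* at 7.78, 15.6 and 8.25, neither of them overlapping its neighbours. *lys-5* and *lys-6* stayed below 1 CPM per kilobase on average in all 3 L1 strains.

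**Figure D1:**
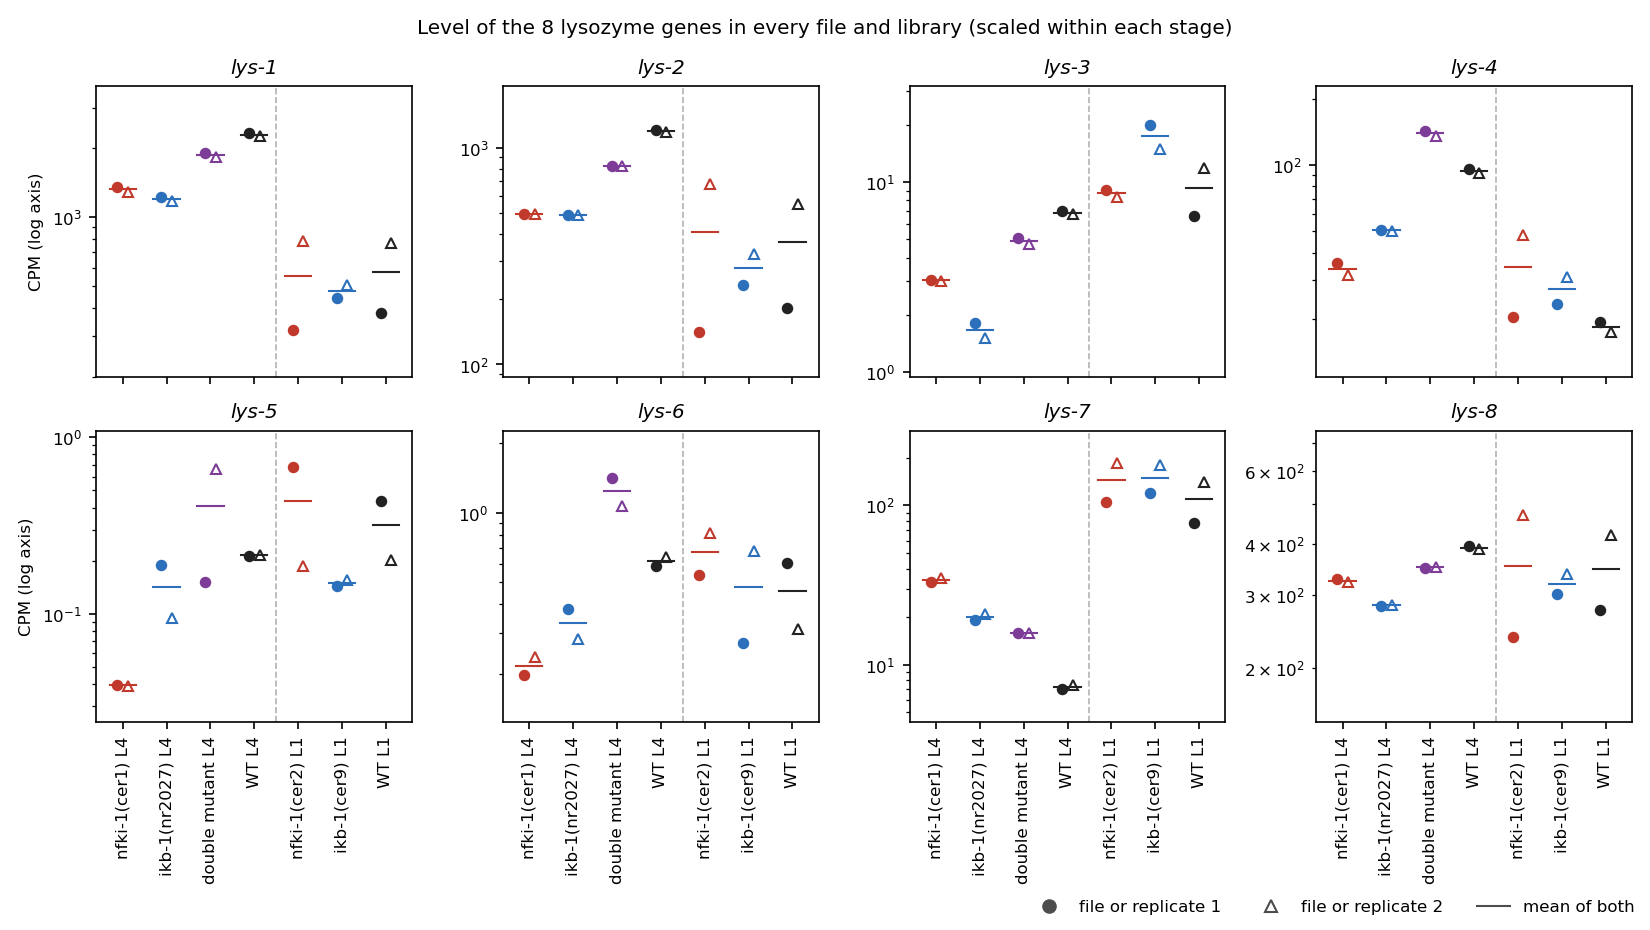
Level of each lysozyme gene (CPM, log axis, 1 panel a gene) in each of the 14 files and libraries, with mutants left of WT within L4 (left of the dashed line) and L1. Circles and triangles are file or replicate 1 and 2 and the bar is their mean. *lys-7* is the gene whose WT L4 level (7.01 and 7.45 CPM) lies below all other groups. The paired L4 files lie close together, except for the sparse *lys-5* in *ikb-1* larvae (0.190 and 0.094 CPM) and double mutants (0.151 and 0.660).

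In L4 *nfki-1* larvae, 6 of the 7 lysozyme genes that passed the filter on low counts were below WT and *lys-7* was above it. With the study's fold threshold (a log2 ratio of at least 2 in size), 1 of the 7 was called higher, *lys-7*, and 0 were called lower, where 12.8% and 6.45% of the 14812 genes tested were called. At a log2 ratio of at least 1 in size, 1 of 7 was higher and 4 were lower (*lys-2*, *lys-3*, *lys-4* and *lys-6*), against 27.9% and 23.4% of all genes. The median log2 ratio of the 7 was -1.19, and that of all genes tested was -0.06.

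*lys-7* had 32.97 and 34.8 CPM in the files of *nfki-1* larvae, 19.02 and 20.7 in *ikb-1* larvae and 15.9 and 15.7 in double mutants, against 7.01 and 7.45 in WT. All 3 mutants were thus above WT, in files that count as 1 sample a strain. The log2 ratio to WT was 2.23 in *nfki-1* larvae (interval 2.04 to 2.42, 1720 against 270 reads), 1.46 in *ikb-1* larvae (interval 1.26 to 1.66) and 1.13 in double mutants (interval 0.92 to 1.34), that is 4.69-fold, 2.75-fold and 2.18-fold. *lys-7* was the lysozyme gene with the largest increase in *nfki-1* larvae and in *ikb-1* larvae and kept its direction under RLE size factors, library totals and scaling to intestinal markers. When the spread of the L1 replicates stood in for that of L4, edgeR gave *lys-7* in *nfki-1* larvae a log2 fold change of 2.18 with an SE of 0.63 and an adjusted p of 0.0662, and 0 of the 8 lysozyme genes passed an adjusted p of 0.01 in any L4 mutant (by that test 2.16% of 21293 genes passed upwards and 0.319% downwards in *nfki-1* larvae, 0.916% and 0.0423% in *ikb-1* larvae, and 0% and 0% in double mutants). At an unadjusted p below 0.05 the same edgeR fit held 1 of the 8 higher (*lys-7*) and 2 lower (*lys-3* and *lys-4*) in *nfki-1* larvae, beside 17.1% and 15.9% of all genes. It held 0 higher and 1 lower (*lys-3*) in *ikb-1* larvae, beside 16% and 13.9%, and 0 in double mutants, beside 8.6% and 4.7%.

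The *lys-1*, *lys-2* and *lys-3* group was lower in each L4 mutant than in WT, except that the log2 ratios of *lys-1* were 0.01, -0.16 and -0.02 in *nfki-1* larvae, *ikb-1* larvae and double mutants when scaled to intestinal markers. *lys-1*, a gene known to be induced by the pathogen *Serratia marcescens*, had 1355 and 1286 CPM in *nfki-1* larvae, 1227 and 1171 in *ikb-1* larvae and 1901 and 1835 in double mutants, against 2340 and 2251 in WT. *lys-2* had 495 and 492 CPM in *nfki-1* larvae, 488 and 490 in *ikb-1* larvae and 825 and 826 in double mutants, against 1201 and 1182 in WT. With TMM scaling both genes were lowest in the single mutants and highest in WT, with the double mutant between. *lys-1* lost this order when scaled to intestinal markers. That scale is the summed reads of 9 marker genes, so abundant markers weigh most. *act-5* alone held 2808 of the 6264 CPM in WT, and it was the marker lowest relative to WT in the single mutants (-1.39 and -1.25). The order of *lys-1* on a scale without *act-5* was not tested. The log2 ratios of *lys-1* were -0.80, -0.94 and -0.30 in *nfki-1* larvae, *ikb-1* larvae and double mutants, and those of *lys-2* were -1.27, -1.28 and -0.53. Between the single mutants, *nfki-1* larvae over *ikb-1* larvae, the log2 ratio of *lys-2* was 0.01 (interval -0.01 to 0.04) and that of *lys-1* was 0.14 (interval 0.12 to 0.16).

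*lys-3*, the remaining gene of that group, was far less abundant. It had 3.05 and 3.02 CPM in *nfki-1* larvae, 1.80 and 1.51 in *ikb-1* larvae and 5.05 and 4.72 in double mutants, against 7.06 and 6.75 in WT. Its log2 ratio of -2.06 in *ikb-1* larvae (interval -2.46 to -1.67, 70 against 258 reads) was the 1 call in that mutant, where 4.24% of all genes were called lower, 12.1% higher and 0 of the 7 lysozyme genes were higher. At a log2 ratio of 1 there were 1 higher (*lys-7*) and 2 lower (*lys-2* and *lys-3*) in this mutant, against 27.1% and 20.1% of all genes, and the median of the 7 was -0.90, against -0.03 over all genes. The call of *lys-3* lies near the threshold: it was lost with file 1 alone (-1.97), with library totals (-1.73) and with scaling to intestinal markers (-1.28). In *nfki-1* larvae the log2 ratio of *lys-3* was -1.19 (interval -1.48 to -0.89) and in double mutants -0.50 (interval -0.78 to -0.22).

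*lys-4*, of the second group, was the abundant gene that stood on different sides of WT in the single and double mutants. It had 35.8 and 31.7 CPM in *nfki-1* larvae, 50.8 and 50.3 in *ikb-1* larvae and 143 and 135 in double mutants, against 96.0 and 91.9 in WT. The log2 ratio to WT was -1.48 in *nfki-1* larvae (interval -1.56 to -1.39), -0.90 in *ikb-1* larvae (interval -0.97 to -0.82) and 0.56 in double mutants (interval 0.50 to 0.63). Between the double mutant and *nfki-1* larvae it was 2.04 (interval 1.96 to 2.12), past the fold threshold that 3.07% of all genes passed upwards and 3.66% downwards in that comparison. *lys-6*, its neighbour, had 11 reads in *nfki-1* larvae, 14 in *ikb-1* larvae and 49 in double mutants, against 23 in WT. Its log2 ratios, -1.51 (interval -2.69 to -0.41), -0.89 (interval -1.97 to 0.12) and 1.01 (interval 0.27 to 1.79), had the same signs as those of *lys-4*, and it was the other lysozyme gene past the threshold between the double mutant and *nfki-1* larvae (2.52, interval 1.55 to 3.61). With scaling to intestinal markers neither gene passed it, at 1.51 for *lys-4* and 1.99 for *lys-6*, and *lys-4* was also below it with library totals (1.81) and with file 1 alone (1.995). *lys-5* had 2, 6 and 16 reads in the mutants, against 8 in WT, and did not pass the filter. The ratio from 2 against 8 reads, -2.44, has an interval of -5.72 to -0.12, so the level of *lys-5* was not resolved at this depth.

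In the double mutant 0 of the 7 lysozyme genes that passed the filter were past the fold threshold (7.45% of all genes were higher and 2.01% lower). At a log2 ratio of 1 there were 2 higher, *lys-6* and *lys-7*, and 0 lower, against 18.8% and 7.39% of all genes. A fit of the double mutant's change minus the sum of the single mutants' changes, with the spread of the L1 replicates, gave *lys-4* 3.06 (SE 0.84, adjusted p 0.0483) and *lys-3* 2.87 (SE 0.72, adjusted p 0.0382) in edgeR, and 0 of the 8 genes passed an adjusted p of 0.01, which 1.15% of all genes passed upwards and 5.05% downwards. Unadjusted p was below 0.05 for *lys-3*, *lys-4* and *lys-6*, with positive differences, and for *lys-7*, with a negative one (-2.44), beside 17.9% of all genes upwards and 18.1% downwards.

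The mutants were also set against each other. Between the double mutant and *nfki-1* larvae, a log2 ratio of 1 in size was passed upwards by *lys-4* and *lys-6* and downwards by *lys-7* (-1.10, interval -1.24 to -0.97), 2 and 1 of the 7 genes, beside 15% and 17% of all genes. Between the double mutant and *ikb-1* larvae, 3 of the 7 passed it upwards, *lys-3* (1.56), *lys-4* (1.46) and *lys-6* (1.91), and 0 downwards, beside 11.1% and 15%. None of those 3 was past a ratio of 2, which 1.26% of all genes passed upwards and 2.63% downwards. Between *nfki-1* larvae and *ikb-1* larvae, 0 of the 7 passed 1 or 2 in either direction. All genes passed 1 in 1.79% of cases upwards and in 2.59% downwards, and 2 in 0.351% and 0.398%. The largest ratios there were those of *lys-3* (0.87, interval 0.46 to 1.30) and *lys-7* (0.77, interval 0.65 to 0.89).

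*lys-8* differed least from WT, with TMM scaling, among the genes with many reads. It had 328 and 323 CPM in *nfki-1* larvae, 284 and 284 in *ikb-1* larvae and 350 and 351 in double mutants, against 394 and 389 in WT. Its log2 ratios were -0.27, -0.46 and -0.16, all below WT, yet they were 0.15, -0.13 and 0.03 with library totals alone and 0.54, 0.32 and 0.12 when scaled to the intestinal markers. The scaling itself moved the median of all genes: in *nfki-1* larvae, *ikb-1* larvae and double mutants it was -0.06, -0.03 and -0.05 with TMM, 0.36, 0.31 and 0.14 with library totals, and 0.75, 0.75 and 0.23 with the intestinal markers. With that last scaling *lys-2*, *lys-3*, *lys-4* and *lys-6* had ratios of -0.46, -0.38, -0.67 and -0.70 in *nfki-1* larvae and of -0.50, -1.28, -0.11 and -0.11 in *ikb-1* larvae.

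**Figure D2:**
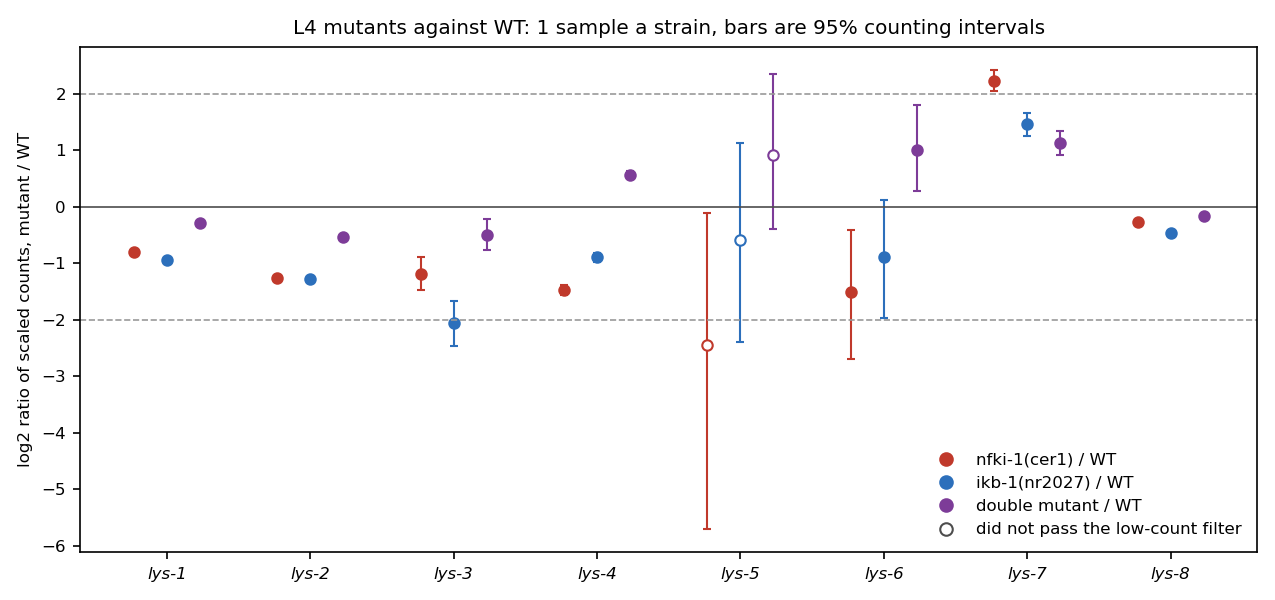
Log2 ratio of each L4 mutant to WT for the 8 lysozyme genes, with exact binomial 95% counting intervals. Dashed lines mark the fold threshold of 2, filled points passed the filter on low counts and open points (*lys-5*) did not. *lys-7* lies above 0 in all 3 mutants, and *lys-4* lies at -1.48 and -0.90 in the single mutants but at 0.56 in double mutants.

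Summed over the 8 genes, lysozyme reads came to 2251 and 2172 CPM in L4 *nfki-1* larvae, 2071 and 2019 in *ikb-1* larvae and 3241 and 3170 in double mutants, against 4046 and 3929 in WT. These are log2 ratios of -0.85, -0.96 and -0.31, and *lys-1* and *lys-2* together supplied 81.9% to 87.5% of the reads. Intestinal markers lay on the same side of WT: their sum over 9 genes was 3579, 3647 and 5166 CPM in the mutants and 6264 in WT, log2 ratios of -0.81, -0.78 and -0.28, with 8 of 9 genes below WT in each mutant. None of the 9 was at 0 in any library, so the labelled whole animals held intestinal RNA throughout. *act-5*, the actin of the microvilli, had the largest intestinal decrease in *nfki-1* larvae (-1.39), and *pept-1*, the gut peptide transporter, was the 1 of 9 above WT in the single mutants (0.40 in both). Germline markers lay on the other side: their sum over 10 genes was 2432, 2324 and 959 CPM in the mutants, against 250 CPM in WT, and 10 of 10 were above WT in each mutant. The part of intestinal or germline RNA content in the lysozyme ratios was not tested.

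**Figure D3:**
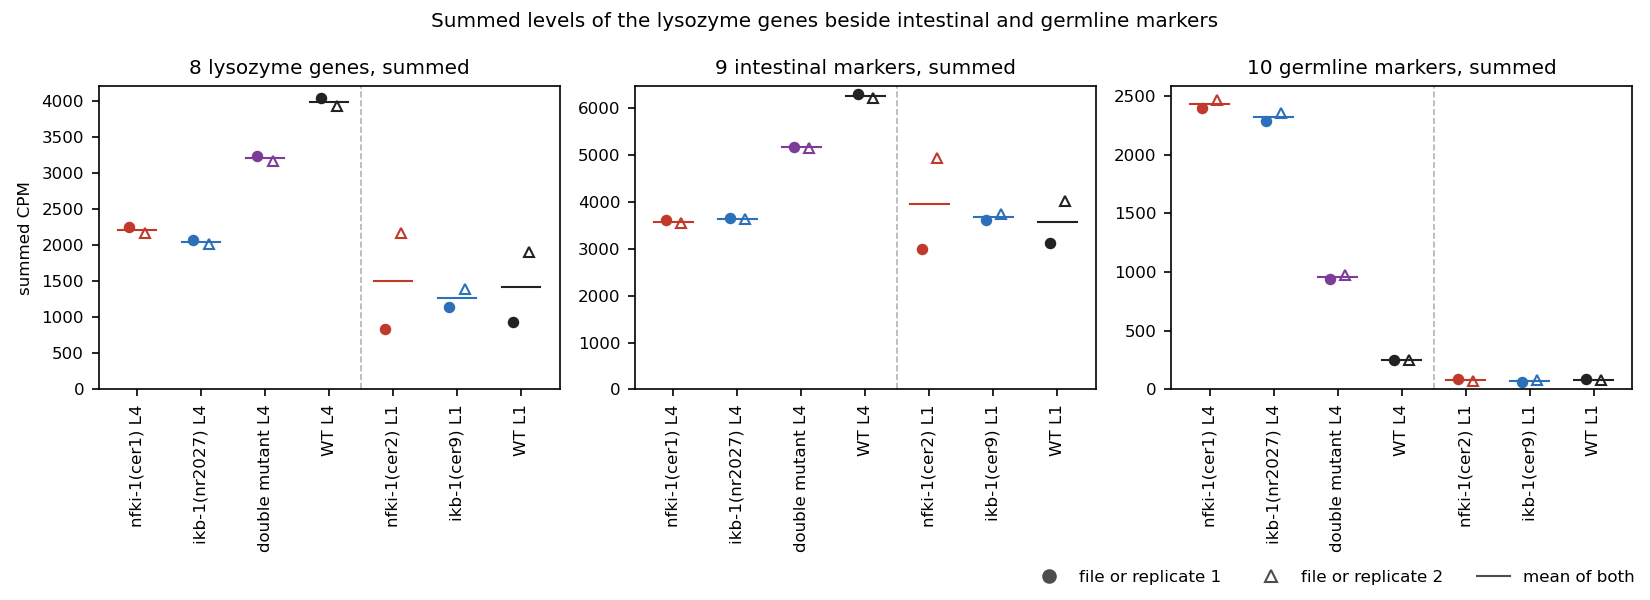
Summed CPM of the 8 lysozyme genes, of 9 intestinal markers and of 10 germline markers in each file and library, on linear axes from 0, with mutants left of WT and L4 left of the dashed line. At L4 the lysozyme and intestinal sums are lowest in the single mutants and highest in WT, and the germline sum runs the other way.

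At L1, 0 of the 8 lysozyme genes, all of which passed the filter, had an adjusted p below 0.01 in either mutant by edgeR's quasi-likelihood test, where 0% of 19183 genes were called in either direction. The mutated genes themselves were also left uncalled by edgeR. Their log2 fold changes were -0.80 for *nfki-1* in *nfki-1* larvae and -4.52 for *ikb-1* in *ikb-1* larvae (edgeR adjusted p 0.0813 for *ikb-1*). The 0 of 8 therefore does not show unchanged levels. DESeq2 also called 0 of the 8. It did call *ikb-1* in *ikb-1* larvae (DESeq2 adjusted p 7.1e-36), but not *nfki-1* in *nfki-1* larvae. In all, DESeq2 called 1 gene higher and 0 lower in *nfki-1* larvae, and 4 higher and 6 lower in *ikb-1* larvae. It was given all 42048 genes of the count files, and its p adjustment left part of them out. At an unadjusted p below 0.05 edgeR gave 0 lysozyme genes in *nfki-1* larvae and 1 in *ikb-1* larvae, *lys-3*. Of all genes, 0.344% were higher and 0.568% lower at that level in *nfki-1* larvae, and 0.735% and 0.485% in *ikb-1* larvae. As the labels do not say that replicates came from separate cultures, these p-values measure the spread between these libraries, which may be technical.

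*lys-3* had 20.02 and 14.97 CPM in *ikb-1* larvae, against 6.63 and 11.9 in WT, and the 2 strains did not overlap. Its log2 fold change was 0.92 (SE 0.33, n = 2 each, edgeR adjusted p of 1, unadjusted p of 0.0291). In *nfki-1* larvae it had 9.06 and 8.39 CPM, between the WT replicates. *lys-4* had 20.4 and 48.2 CPM in *nfki-1* larvae and 23.4 and 31.0 in *ikb-1* larvae, against 19.4 and 17.5 in WT. Both mutants lay above WT in every library, by log2 fold changes of 0.89 (SE 0.40, edgeR adjusted p of 1) and 0.56 (SE 0.40, edgeR adjusted p of 1), and in *nfki-1* larvae the difference came mostly from replicate 2 (1.46 within replicate 2, 0.07 within replicate 1). For *lys-4* in *nfki-1* larvae the replicate block gave 0.78 (edgeR unadjusted p of 0.0485) and DESeq2 gave 0.90 (unadjusted p of 0.0492), both with an adjusted p of 1.

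*lys-7* had 105 and 184 CPM in *nfki-1* larvae and 120 and 179 in *ikb-1* larvae, against 77.6 and 141 in WT. The groups overlapped, but within each replicate number the mutants were above WT, by log2 ratios of 0.44 and 0.38 in *nfki-1* larvae and 0.62 and 0.35 in *ikb-1* larvae. With the replicate number as a block its log2 fold changes were 0.41 (unadjusted p of 0.0299 in edgeR) and 0.49 (unadjusted p of 0.0154), and the adjusted p stayed at 1. In that blocked fit 2 of the 8 genes were higher at an unadjusted p below 0.05 in *nfki-1* larvae (*lys-4* and *lys-7*) and 2 in *ikb-1* larvae (*lys-3* and *lys-7*), and 0 were lower. Of all genes, 1.27% were higher and 1.64% lower at that level in *nfki-1* larvae, and 1.92% and 1.21% in *ikb-1* larvae. *lys-7* was the 1 lysozyme gene above WT in each mutant at both stages and within both L1 replicate numbers.

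*lys-1*, *lys-2* and *lys-8* took no steady side at L1. *lys-2* had 141 and 676 CPM in *nfki-1* larvae and 233 and 325 in *ikb-1* larvae, against 181 and 552 in WT. In *nfki-1* larvae and WT the replicates thus lay further apart than the strain means. Replicate 2 was above replicate 1 by log2 values of 2.27, 0.48 and 1.604 for *lys-2*, 1.29, 0.18 and 1.02 for *lys-1* and 0.98, 0.16 and 0.61 for *lys-8* in *nfki-1* larvae, *ikb-1* larvae and WT. The intestinal markers also differed between replicates, at 2997 and 4935 summed CPM in *nfki-1* larvae, 3613 and 3748 in *ikb-1* larvae and 3134 and 4020 in WT. Within replicate 1, *lys-1*, *lys-2* and *lys-8* were below WT in *nfki-1* larvae and above it in *ikb-1* larvae, and within replicate 2 all of these signs were turned round. *lys-5* and *lys-6* had 9 to 48 reads per library, and their log2 fold changes lay between -1.08 (SE 0.82) and 0.55 (SE 0.64).

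**Figure D4:**
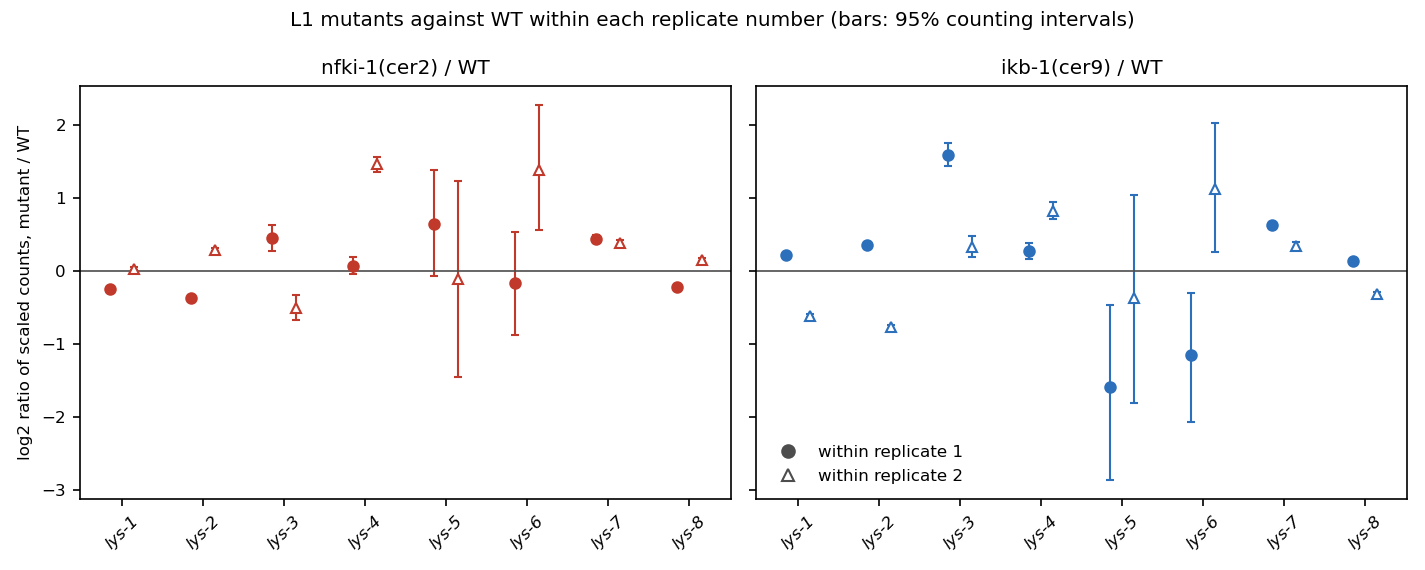
Log2 ratio of each L1 mutant to WT within replicate 1 (circles) and replicate 2 (triangles), with exact binomial 95% counting intervals, for *nfki-1* larvae (left) and *ikb-1* larvae (right). *lys-7* lies above 0 in all 4 ratios, and *lys-1*, *lys-2* and *lys-8* change side between the replicate numbers.

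WT L4 larvae were compared with WT L1 larvae in 1 fit over 10 samples, on a common scale. By edgeR 2 of the 8 lysozyme genes passed an adjusted p of 0.01: *lys-4* was higher and *lys-7* lower at L4, where 11.5% of 21293 genes were higher and 11.8% lower. The median log2 fold change was 0.62 over the 8 genes and -0.59 over all genes tested. *lys-4* had 108 CPM in WT L4, against 17.5 and 16.3 in WT L1, a log2 fold change of 2.68 (SE 0.49, adjusted p 0.00679). *lys-7* had 8.34 CPM in WT L4, against 70.3 and 132 in WT L1, a log2 fold change of -3.60 (SE 0.63, adjusted p 0.00612). The call of *lys-4* was lost without WT L1 replicate 1 (adjusted p 0.0204) or without replicate 2 (0.0228), and that of *lys-7* held without either. *lys-1* had a log2 fold change of 2.32 (SE 0.61) with an adjusted p of 0.0234 in edgeR, which misses the threshold that it passed in DESeq2 (adjusted p 0.000585). Stage differs here together with depth, feeding and growth time, which cannot be told apart from it.

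On that common scale *lys-7* had 37.7 CPM in L4 *nfki-1* larvae, 21.8 in *ikb-1* larvae and 18.1 in double mutants, each between WT L4 and the lowest L1 library (70.3). *lys-4* had 37.6 CPM in L4 *nfki-1* larvae, within the span of the L1 libraries (16.3 to 44.6), and 55.4 and 160 in *ikb-1* larvae and double mutants, above them. The difference between a mutant's change at L4 and at L1 was also fitted, and 0 of the 8 genes passed an adjusted p of 0.01 in edgeR for either mutated gene, where 0.047% of all genes passed upwards and 0% downwards for *nfki-1*, and 0% and 0% for *ikb-1*. Unadjusted p was below 0.05 with a negative difference for 1 of the 8 genes in each case, *lys-4* for *nfki-1* and *lys-3* for *ikb-1*. Of all genes, 13.9% were positive and 11.9% negative at that level for *nfki-1*, and 13.4% and 10.1% for *ikb-1*.

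Among other lysozyme genes (*lys-9*, *lys-10* and *ilys-1* to *ilys-6*), 3 of 8 passed the L4 filter and 0 were past the fold threshold in any mutant. *ilys-5*, the one averaging 10 CPM or more, had 109 CPM in *nfki-1* larvae, 181 in *ikb-1* larvae and 295 in double mutants, against 233 in WT. With files summed it stood, like *lys-4*, below WT in the single mutants (-1.10 and -0.36) and above it in double mutants (0.34). Its paired files lay far apart, unlike those of *lys-4*. They had 80.1 and 138 CPM in *nfki-1* larvae, 132 and 231 in *ikb-1* larvae and 216 and 373 in double mutants, against 172 and 293 in WT. The files of *ikb-1* larvae and of double mutants thus overlapped those of WT. Saposin-like protein genes, some of which are known to encode membrane-permeabilizing antimicrobial proteins of the gut, had 16 of 23 members past the filter. Of these, 2, 2 and 0 were past the fold threshold downwards in *nfki-1* larvae, *ikb-1* larvae and double mutants and 0 upwards, where 6.45%, 4.24% and 2.01% of all genes were lower and 12.8%, 12.1% and 7.45% higher. Their medians were -1.11, -1.15 and -0.33, beside -0.06, -0.03 and -0.05 over all genes. Among those averaging 10 CPM or more, *spp-13*, which overlaps 2 other annotated genes, was lowest relative to WT at -3.44, -2.73 and -1.35, and the highest ratio was that of *spp-8* (0.02) in *nfki-1* larvae, *spp-23* (-0.24) in *ikb-1* larvae and *spp-18* (-0.10) in double mutants.

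Genes of 2 pathways known to act on gut defence genes, and other immune regulators, were counted in the same way at L4. Of all genes tested, 12.8%, 12.1% and 7.45% were past the fold threshold upwards in *nfki-1* larvae, *ikb-1* larvae and double mutants. Downwards it was passed by 6.45%, 4.24% and 2.01%, and the medians over all genes were -0.06, -0.03 and -0.05. In the PMK-1 pathway 0 of 8 genes were past the fold threshold in any mutant, with medians of -0.20, -0.09 and -0.10. Its extremes, here and below among genes averaging 10 CPM or more, were *atf-7*, a transcription factor that PMK-1 phosphorylates (0.49 and 0.47), and *tir-1*, the adaptor at the top of the pathway (-0.92 and -0.55), in the single mutants, and *tpa-1* (0.11) and *pmk-1* itself (-0.70) in double mutants. In the DBL-1 pathway 0 of 9 genes were past it, with medians of -0.29, -0.40 and -0.48. *sma-9*, a transcriptional cofactor, was highest (1.31 and 1.15) and *sma-2*, a Smad, lowest (-1.05 and -1.13) in the single mutants, and *lon-2* (-0.22) and *sma-6*, a receptor (-1.004), were the extremes in double mutants. Of 5 other immune regulators 0 were past it, between 0.41 for *skn-1* and -0.998 for *zip-2* in *nfki-1* larvae, 0.44 for *skn-1* and -0.88 for *zip-2* in *ikb-1* larvae, and 0.39 for *cebp-1* and -0.37 for *pqm-1* in double mutants. At L1 0 genes of these lists passed an adjusted p of 0.01, or an unadjusted p of 0.05, in either mutant by edgeR. Of all genes, 0% passed the adjusted level. At the unadjusted level 0.344% were higher and 0.568% lower in *nfki-1* larvae, and 0.735% and 0.485% in *ikb-1* larvae.

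The genes whose levels ran most like those of each lysozyme gene were ranked by Pearson's r of log2 CPM over the 10 samples, among the 8751 genes that averaged 10 CPM or more. Samples of a stage share their depth and growth conditions, so the r values are descriptions. *lys-1* was most like *clec-63* (a C-type lectin, 0.99), F46H5.7 (0.99) and F20G2.2 (0.99), and *lys-2* most like F56F10.1 (0.99), Y7A5A.1 (0.99) and *asp-14* (an aspartic protease, 0.98). *lys-7* ran with W02G9.4 (0.99), *sulp-5* (a sulfate permease family member, 0.99) and Y69H2.3 (0.98), and *lys-8* with ZK1320.3 (0.98), F58G6.9 (0.97) and F55G11.8 (0.96). *lys-4* was closest to Y55B1AL.2 (0.97), *pfd-4* (a prefoldin subunit, 0.97) and *lec-11* (a galectin, 0.96), and *lys-3* to the non-coding RNA *rncs-1* (0.96), K03A11.5 (0.94) and *paf-2* (0.94). The sparse genes had looser partners, B0491.7 (0.83), R144.11 (0.81) and F45D3.4 (0.80) for *lys-5* and F17C11.11 (0.88), B0491.7 (0.84) and Y47D3B.6 (0.84) for *lys-6*. Among the lysozyme genes themselves r was 0.94 between *lys-1* and *lys-2*, 0.94 between *lys-2* and *lys-8*, and -0.82 between *lys-1* and *lys-7*.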

How the data were processed

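RNA-seq of 14 libraries of whole larvae was analysed from the HTSeq counts the authors deposited, which are whole numbers per gene without normalization. According to the methods, reads were trimmed with Trim Galore, mapped to WBcel235 with Bowtie2 and counted with HTSeq 0.9.1, which the methods describe as giving normalized counts. Lines that name no gene (13.4% to 20.0% of reads) were left out. The design text and the labels differ on the number of L1 replicates, and the design text and the methods on read length. Sample titles were followed. The labels' extraction protocol also describes cell sorting, a step absent from the methods.

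Here R 4.3.3 with edgeR 4.0.16 (filterByExpr with a minimum count of 10, TMM, quasi-likelihood test, Benjamini-Hochberg adjustment over all genes tested) and DESeq2 1.42.0 were used, with Python 3.11.15, pandas 2.3.3 and scipy 1.17.1. CPM is scaled within a stage unless a common scale is named. At L4, files of a strain were summed, ratios were taken between summed counts divided by their scaled library sizes, and a log2 ratio of at least 2 in size was a call. At L1 the 6 libraries were fitted with strain as the only factor. The 10-sample fit holds the 4 summed L4 samples and 6 L1 libraries, and its spread comes from L1 replicates alone. L1 replicate numbers deviated together (r of 0.77, 0.49 and 0.50 between strains over 13330 genes), so a fit with the number as a block was made beside the main, unblocked one. The tests were tried on simulated counts with known changes.

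Gene positions and exon lengths are from Ensembl release 115 of WBcel235. Named genes are all members, the 3 genes of highest r to each, the extremes of each list at 10 CPM or more at L4, and *nfki-1* and *ikb-1*. Members, lists and tests were chosen with earlier results of these data known. Alternatives were RLE factors, library totals, scaling to intestinal markers, no filter, DESeq2, the replicate block, files as samples, a fold threshold of 1, 2 strains alone and each library left out. The counts of the insulin pathway list are not reported here.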

Additional observations from a re-analysis of the deposited data

Results flagged for a closer look

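*lys-4* lay below WT at L4 in *nfki-1(cer1)* (log2 ratio -1.48) and above WT within both replicate numbers at L1 in *nfki-1(cer2)* (0.07 and 1.46). The ratio within replicate 1 had a counting interval of -0.04 to 0.18, so it was not resolved from WT. The change at L4 minus that at L1 was -2.43 on the log2 scale, with an adjusted p of 0.104 in edgeR.

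The same gene lay below WT in L4 *ikb-1(nr2027)* (-0.90) and above it in both L1 replicate numbers of *ikb-1(cer9)* (0.27 and 0.82). The difference was -1.55, with an adjusted p of 0.255 in edgeR.

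*lys-3* lay below WT in L4 *ikb-1(nr2027)* (-2.06) and above WT in both L1 replicate numbers of *ikb-1(cer9)* (1.595 and 0.34). The difference was -3.06, with an adjusted p of 0.0518 in edgeR.

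None of the 3 differences passed an adjusted p of 0.01. The fit takes each L4 sample to vary like the L1 replicates, the alleles differ between the stages, and the part of either in these differences was not tested.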

How the results depend on the processing

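With a fold threshold of 1 in place of 2, the lysozyme genes past it at L4 numbered 5 in *nfki-1* larvae, 3 in *ikb-1* larvae and 2 in double mutants, in place of 1, 1 and 0. With the spread of the L1 replicates and an adjusted p of 0.01 there were 0 in *nfki-1* larvae and 0 in *ikb-1* larvae. With library totals the 1 call in *ikb-1* larvae went to 0, as *lys-3* moved to -1.73. Scaling to intestinal markers also gave 1 call there, but a different gene, *lys-7* at 2.24. With either file of a strain left out the counts were 1 in *nfki-1* larvae, 0 to 1 in *ikb-1* larvae and 0 in double mutants. Taking the 2 files as 2 samples, with or without the replicate block, left 1, 1 and 0. At L1 the count was 0 under every alternative run, the replicate block and each library left out included. In the WT stage comparison the count was 2, and 1 to 2 with a library or file left out. DESeq2 and the fit without a filter gave 3, *lys-1* being added. No called value reversed its sign. L4 holds 1 sample a strain, so population spread is unknown there, and if the paired files share fragments the intervals are too narrow even for counting error.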

Other observations

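Markers of other tissues also differed from WT at L4. Body wall muscle markers (5 genes) summed to 3534, 5089 and 5303 CPM in *nfki-1* larvae, *ikb-1* larvae and double mutants, against 7595 in WT. Their log2 ratios ranged from *unc-27* (-1.53) to *unc-89* (0.46) in *nfki-1* larvae. Epidermal markers (5 genes) summed to 203, 244 and 435 CPM, against 1089 in WT, with the cuticle collagen *dpy-7* lowest at -4.18, -3.90 and -3.11. *lin-26* was the 1 of these 5 genes above WT in the single mutants (0.10 and 0.07), and *elt-3* was highest in double mutants (-0.41). Neuronal markers (5 genes) summed to 133, 146 and 156 CPM, against 188 in WT. Among the 5 tissue lists, intestine and germline included, only the germline list was above WT in sum in these mutants.

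Between L1 replicates, the lysozyme sum differed: it was 834 and 2169 CPM in *nfki-1* larvae and 1142 and 1390 in *ikb-1* larvae, against 942 and 1910 in WT. The share of *lys-1* and *lys-2* in that sum was 55.2% and 67.3% in *nfki-1* larvae, 59.1% and 59.5% in *ikb-1* larvae, and 59.6% and 69.1% in WT.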
